A study of Mus musculus with 8 samples.

Results

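The orphan and adhesion G protein-coupled receptors of dendritic cells from mouse thymus were followed on microarrays across 2 dendritic cell subsets and 2 maturation states. The receptors were taken as the genes whose current symbol begins with Gpr and a digit or with Adgr, which gave 94 genes (69 Gpr and 25 Adgr) with 110 probes among the 20145 genes with a symbol on the array. The rule rests on symbols and on no measured value, though it was set with earlier results of these data known.

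RNA from sorted dendritic cells was hybridised in 1 colour (Cy3) to 8 Agilent arrays, and the labels place them in 4 groups of 2 arrays. The groups are Sirpa-positive mature cells (replicates 1 and 6), Sirpa-positive immature cells (replicates 3 and 5), Sirpa-negative mature cells (replicates 2 and 8) and Sirpa-negative immature cells (replicates 4 and 7). Sirpa is an inhibitory surface receptor that marks the type 2 subset of dendritic cells. The labels give no strain, age, genotype, treatment or further sort marker, and do not state whether the 2 arrays of each stem from different mice or sorts. The spread that the p-values measure is thus only that between these arrays, possibly technical, and 2 arrays per group limit the precision.

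G protein-coupled receptors cross the membrane in a bundle of helices and pass the binding of a ligand to G proteins inside the cell. Orphan receptors are those whose ligand was unknown when they were named or is still debated, and several carrying a Gpr name have since been tied to lipids, metabolites or protons. Adhesion receptors add a long outer part that is cut near the membrane and binds matrix or proteins on other cells. In dendritic cells the best studied of these genes is Gpr183, a receptor for oxysterols that helps to place the cells within lymphoid organs, and Adgre5, also called CD97, is found on most leukocytes.

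The sorted groups were checked against marker genes. Ccr7, the chemokine receptor of mature dendritic cells, was 71.7-fold higher in mature than in immature Sirpa-positive cells and 51.5-fold higher in mature than in immature Sirpa-negative cells (limma, adjusted p = 0.00256 and 0.00159), and 7 of 7 mature markers rose in both. Sirpa itself was 114-fold higher in immature Sirpa-positive than in immature Sirpa-negative cells and 28.3-fold higher in the mature cells. The 7 general dendritic cell markers were all tested. Spots well above background made up 61.9% to 65.5% of an array in row 1 of the slide and 52.9% to 57.9% in row 2, each row held 1 array of every group, the 75th percentile of the processed intensity lay between 147 and 313, and 0 spots were saturated.

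A gene was tested where a probe was well above background, by the scanner software's own mark, on both arrays of at least 1 group. This held for 52 of the 94 receptor genes (55.3%, 39 Gpr and 13 Adgr genes), against 68.8% of all genes with a symbol. Of the 52 tested genes, 36 were well above background on all 8 arrays and 16 on fewer. The number above background on both arrays of a group was 41 in Sirpa-positive mature, 49 in Sirpa-positive immature, 43 in Sirpa-negative mature and 39 in Sirpa-negative immature cells. Of all spots, 65.5% and 53.2% were well above background on the Sirpa-positive mature arrays and 57.9% and 65.1% on the Sirpa-positive immature ones. The Sirpa-negative arrays gave 63.8% and 55.6% in the mature and 52.9% and 61.9% in the immature state. Whether the receptor counts follow these array-wide shares was not tested. Of the 42 receptor genes not tested, 27 were well above background on 0 arrays and 15 on 1 to 3 arrays. The first kind includes the latrophilins Adgrl2, Adgrl3 and Adgrl4, the brain receptor Adgrb3, Adgrf5 of lung and endothelium, Gpr119, a lipid receptor of gut and pancreas, and Gpr174, a lysophosphatidylserine receptor of lymphocytes. A gene that entered the test through a single group had to be brighter there, so counts of tested genes do not speak for all 94 genes.

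**Figure D1:**
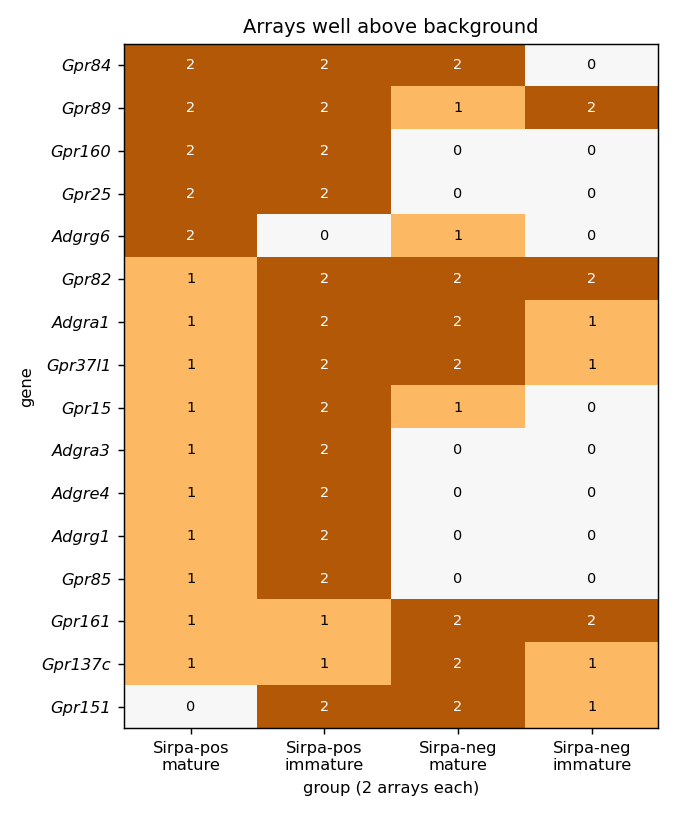
Number of arrays (0, 1 or 2) on which each of the 16 tested receptor genes that were not above background throughout was well above background, by group. Rows are genes and columns are the 4 groups. Gpr160, Gpr25 (brighter probe), Gpr85, Adgrg1, Adgra3 and Adgre4 had 0 Sirpa-negative arrays above background, and Adgrg6 had 0 immature arrays above background.

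Among the 52 tested genes, 22 passed the test (adjusted p under 0.05 over all 24152 genes and accessions) in at least 1 of 4 comparisons and 30 in none. Between mature and immature Sirpa-positive cells 7 receptor genes differed, 3 higher and 4 lower in mature cells, which is 13.5% of those tested beside 6.89% of all genes (4.35% risen and 2.53% fallen). Between mature and immature Sirpa-negative cells 11 differed, with 8 risen and 3 fallen, or 21.2% beside 16.5% of all genes (9.22% risen and 7.24% fallen). Between the subsets, 16 differed among immature cells, 13 higher and 3 lower in Sirpa-positive cells, or 30.8% beside 11.6% of all genes (7.23% higher and 4.38% lower). Among mature cells 9 differed, 7 higher and 2 lower in Sirpa-positive cells, or 17.3% beside 5.48% of all genes (3.37% higher and 2.1% lower). The median log2 difference of the 52 genes was -0.03 and 0.12 in the maturation comparisons of Sirpa-positive and Sirpa-negative cells, beside 0.03 and -0.01 over all genes. It was 0.25 and 0.16 in the subset comparisons of immature and mature cells, beside -0.11 and -0.07 over all genes. At an unadjusted p under 0.05, 16, 18, 22 and 16 of the 52 genes passed in the 4 comparisons as ordered here, beside 20.2%, 29.8%, 24.6% and 16.7% of all genes. The groups did not overlap for 31, 33, 31 and 32 of the 52 genes, beside 51.1%, 57.1%, 59.3% and 40.8% of all genes. Of the genes that passed between the immature subsets, Adgrg1, Gpr160, Gpr25 and Gpr85 entered the test through Sirpa-positive arrays alone. Gpr161 entered it through Sirpa-negative arrays alone. Among the others Adgra3, Adgre4, Gpr15 and Adgrg6 entered through Sirpa-positive arrays alone, and Gpr137c through Sirpa-negative arrays alone. Such entry favours a higher value in that subset in these counts and medians, and its share over all genes was not counted. The 4 comparisons share arrays in pairs, so their results are not independent of each other.

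The count for Sirpa-positive maturation lay between 2 and 7 with 1 array left out. It was 3 without replicate 6 of the Sirpa-positive mature cells, 3 without replicate 3 of the Sirpa-positive immature cells and 2 without replicate 5 of the same group. For Sirpa-negative maturation it was 6 without replicate 4 and 7 without replicate 7 of the Sirpa-negative immature cells. The immature subset count was 7 and 9 without replicates 3 and 5 of the Sirpa-positive cells, and 10 and 8 without replicates 4 and 7 of the Sirpa-negative cells. The mature subset count was 5 without either replicate 1 or replicate 6 of the Sirpa-positive mature cells. With slide row as a block, 4 genes passed for Sirpa-positive maturation and 9 for the immature subset comparison. The 41 passing differences that were named by rank all kept their direction within both rows.

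**Figure D2:**
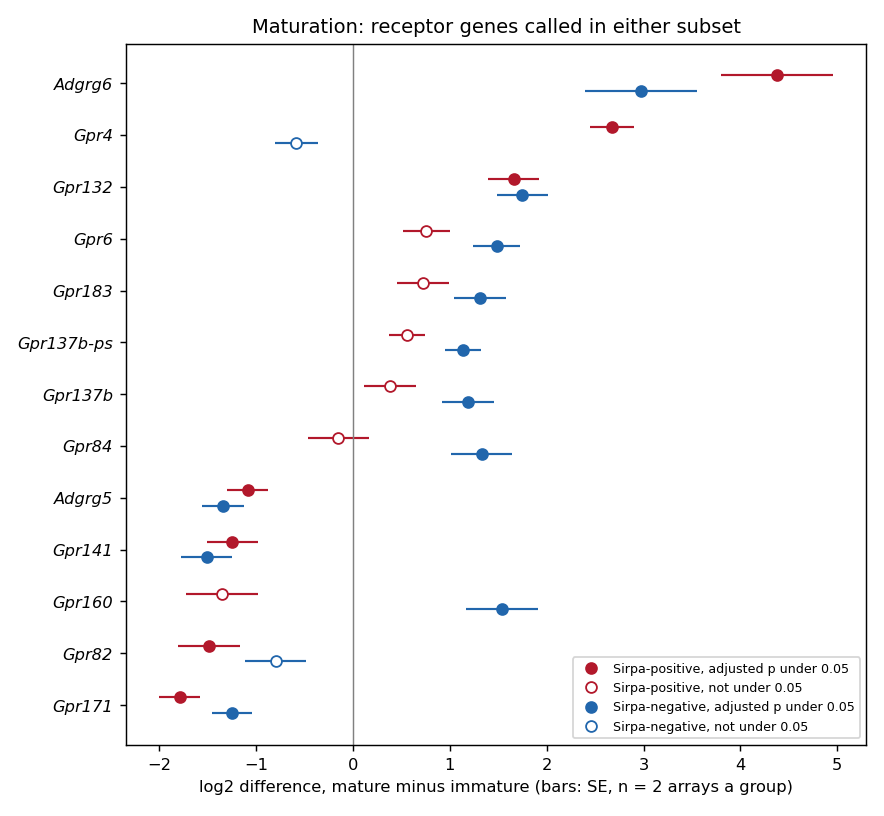
Log2 difference, mature minus immature, of the 13 receptor genes that passed in either maturation comparison, with bars for the standard error. Red points are Sirpa-positive and blue points Sirpa-negative cells, and filled points passed the test (adjusted p under 0.05). Adgrg6 lies highest at 4.37 in Sirpa-positive cells, and Gpr171, Adgrg5 and Gpr141 lie below 0 in both subsets.

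Of the 13 receptor genes that passed in either maturation comparison, 5 passed in both and moved the same way. Gpr132 and Adgrg6 were higher, and Gpr171, Adgrg5 and Gpr141 lower, in the mature cells of each subset. Gpr4 passed in Sirpa-positive cells with the smallest p of all members there. The sequences around the start of these genes are shown because they moved with maturation; Gpr171 had no entry in the table of windows. Each is the RefSeq window of 300 bases (250 before to 50 after the start, assembly GRCm38.p6), read 5′ to 3′ on the gene's strand, and capitals mark the match to the NF-kB consensus. The windows lie at chr12:112860867-112861166 (minus strand) for Gpr132, chr10:14544987-14545286 (minus strand) for Adgrg6, chr8:94923444-94923743 (plus strand) for Adgrg5, chr13:19824208-19824507 (minus strand) for Gpr141 and chr7:19212288-19212587 (plus strand) for Gpr4.
Gpr132: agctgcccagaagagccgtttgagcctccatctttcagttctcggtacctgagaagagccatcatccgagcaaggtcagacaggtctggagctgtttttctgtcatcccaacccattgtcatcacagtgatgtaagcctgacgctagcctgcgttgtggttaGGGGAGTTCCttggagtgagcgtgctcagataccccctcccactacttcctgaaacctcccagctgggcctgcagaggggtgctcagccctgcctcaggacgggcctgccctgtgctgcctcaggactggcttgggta
Adgrg6: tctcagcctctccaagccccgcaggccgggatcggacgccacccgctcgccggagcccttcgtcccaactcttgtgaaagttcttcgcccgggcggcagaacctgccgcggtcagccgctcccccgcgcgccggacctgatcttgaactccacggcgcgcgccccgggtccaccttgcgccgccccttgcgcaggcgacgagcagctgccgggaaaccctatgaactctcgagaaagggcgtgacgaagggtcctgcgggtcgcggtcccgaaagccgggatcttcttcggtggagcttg
Adgrg5: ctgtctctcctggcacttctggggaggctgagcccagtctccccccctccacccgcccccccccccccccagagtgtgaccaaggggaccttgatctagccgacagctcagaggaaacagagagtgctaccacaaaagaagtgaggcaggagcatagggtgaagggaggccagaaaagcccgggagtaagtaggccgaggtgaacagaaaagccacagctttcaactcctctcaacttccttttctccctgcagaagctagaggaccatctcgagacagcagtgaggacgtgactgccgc
Gpr141: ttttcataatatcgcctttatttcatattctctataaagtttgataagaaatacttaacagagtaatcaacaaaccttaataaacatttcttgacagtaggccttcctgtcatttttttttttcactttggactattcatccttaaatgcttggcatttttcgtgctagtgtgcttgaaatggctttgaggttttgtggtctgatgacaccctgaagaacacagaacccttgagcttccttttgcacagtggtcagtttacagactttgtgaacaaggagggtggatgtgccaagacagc
Gpr4: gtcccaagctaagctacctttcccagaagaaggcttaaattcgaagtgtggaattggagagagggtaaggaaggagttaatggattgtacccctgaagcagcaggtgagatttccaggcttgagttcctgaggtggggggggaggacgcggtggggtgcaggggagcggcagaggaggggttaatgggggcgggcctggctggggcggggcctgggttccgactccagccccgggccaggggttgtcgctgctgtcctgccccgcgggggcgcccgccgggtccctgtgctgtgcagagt

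The Gpr132 window holds 1 match to the NF-kB consensus, GGGGAGTTCC on the strand shown. Of the 22 receptor genes that passed anywhere, 18 had an entry, with 22 windows in all. On either strand, 2 of the 22 windows (Gpr132 and Gpr31b) matched the NF-kB consensus, beside 8.46% of all 32851 windows. The AP-1 letters TGANTCA stood in 2 windows (1 of Adgrg1, with 2 matches, and 1 of Gpr146), beside 7.81% of all windows, and the CRE letters TGACGTCA in 1 (Gpr6), beside 1.79%. No window (0) held the ISRE-like motif (GAAA, any 2 bases, GAAA) or the ETS-IRF composite (GGAA, any 2 bases, GAAA), which stand in 3.44% and 2.72% of all windows. The last pair of motifs share their final bases and can overlap. The Adgrg6 window is the richest of the 5 shown in G and C, at 69%, with 38 CpG pairs, and the Gpr141 window the poorest, at 37.3% with 2, beside a median of 52.7% and 7 over all windows. A match of letters is a description and not a bound site.

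Gpr4, Gpr65 and Gpr132 belong to the proton-sensing family and were all tested. Members of this family respond to acid outside the cell, and Gpr132 has also been linked to lysophospholipids and oxidised fatty acids. Values below are relative signals, the processed intensity as a multiple of the 75th percentile of its array. They compare 1 gene between arrays and not different genes with each other. In these bulk samples, fewer cells of a type and less RNA per cell cannot be told apart.

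Gpr132 stood at 19.3 and 16.8 in Sirpa-positive mature cells, against 5.78 and 5.65 in Sirpa-positive immature cells. Sirpa-negative cells gave 38.9 and 23.9 in the mature and 9.41 and 8.75 in the immature state. Every mature array lay above every immature array within its subset. The log2 difference with maturation was 1.66 ± 0.264 in Sirpa-positive cells (SE, 3.15-fold, limma, adjusted p = 0.0137) and 1.75 ± 0.264 in Sirpa-negative cells (3.36-fold, adjusted p = 0.00591). Within rows 1 and 2 of the slide it was 1.77 and 1.54 in Sirpa-positive, and 2.15 and 1.35 in Sirpa-negative cells. The Sirpa-positive call was lost with any 1 of the 4 Sirpa-positive arrays left out (adjusted p = 0.063 without replicate 1, 0.0667 without replicate 6, 0.0906 without replicate 3 and 0.0943 without replicate 5). Between the subsets Gpr132 did not pass, with log2 differences of -0.67 in immature and -0.76 in mature cells (adjusted p = 0.175 and 0.189).

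Gpr4 stood at 0.641 and 0.567 in Sirpa-positive mature cells, against 0.0855 and 0.104 in Sirpa-positive immature cells. Sirpa-negative cells gave 1.85 and 1.43 in the mature and 2.53 and 2.35 in the immature state. The order was therefore Sirpa-negative immature, Sirpa-negative mature, Sirpa-positive mature and Sirpa-positive immature, with no overlap between neighbours. With maturation Gpr4 rose in Sirpa-positive cells by 2.67 ± 0.223 on the log2 scale (6.38-fold, limma, adjusted p = 0.00166), while the difference in Sirpa-negative cells was -0.58 ± 0.223 and did not pass (adjusted p = 0.128). Gpr4 was 25.8-fold lower in immature Sirpa-positive than in immature Sirpa-negative cells (log2 difference -4.69 ± 0.223, adjusted p = 4.86e-05), and 2.69-fold lower in the mature cells (-1.43 ± 0.223, adjusted p = 0.0119).

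The 2 maturation effects of Gpr4 differed by 3.26 ± 0.316 on the log2 scale. The adjusted p was 0.0689 in the limma test of the difference between the effects, where 0 of all 24152 genes passed, 0%. No gene had a smaller adjusted p, but this adjustment can give several genes the same value, so Gpr4 need not rank first. At an unadjusted p under 0.05, 6 of 52 receptor genes and 8.07% of all genes differed. Gpr4 passed this test under 4 of 17 alternatives, with adjusted p between 0.00233 and 0.0146, and there 101 to 186 of all genes passed. In the other 13 the adjusted p lay between 0.0562 and 0.426, with 0.150 for slide row as a block, 0.117 for the mean of both probes and 0.0865 to 0.290 with 1 array left out. The mature subset call was lost without replicate 6 of the Sirpa-positive mature cells (adjusted p = 0.0761) and without replicate 2 of the Sirpa-negative mature cells (0.0603). These values rest on the brighter of the 2 kept Gpr4 probes. The dimmer one differed by -1.67 ± 0.583 between Sirpa-positive and Sirpa-negative immature cells and by 0.80 ± 0.583 with maturation in Sirpa-positive cells, and passed in none of the comparisons. With the mean of both probes, the mature subset difference had an adjusted p of 0.213. Gpr4 is best known from endothelial cells. Of 7 endothelial markers, chosen after these values were seen, Cdh5, Tek and Tie1 were well above background on 0 arrays, and the summed relative signal of the list was 13.0 to 14.8 in Sirpa-positive mature, 7.08 to 7.58 in Sirpa-positive immature, 8.21 to 11.8 in Sirpa-negative mature and 1.5 to 1.64 in Sirpa-negative immature cells. Most of each sum was Kdr, which had 1.29 and 1.16 in the Sirpa-negative immature cells, and the part of endothelial RNA in the Gpr4 values was not tested.

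Gpr65, also known as TDAG8, stood at 1.87 and 1.18 in Sirpa-positive mature cells, against 0.522 and 0.294 in Sirpa-negative mature cells. In the immature state it stood at 2.12 and 1.77 in Sirpa-positive and 0.773 and 0.657 in Sirpa-negative cells. Both Sirpa-positive groups lay above both Sirpa-negative groups without overlap. The log2 difference between the subsets was 1.44 ± 0.344 in immature cells (2.72-fold, limma, adjusted p = 0.0366) and 1.93 ± 0.344 in mature cells (3.80-fold, adjusted p = 0.0204). Within rows 1 and 2 it was 1.43 and 1.46 in immature and 1.84 and 2.01 in mature cells. The immature call was lost with slide row as a block (adjusted p = 0.0522) and with any 1 of the 4 immature arrays left out (0.219, 0.110, 0.0989 and 0.145 without replicates 3, 5, 4 and 7). The mature call was lost without replicate 1 of the Sirpa-positive cells (0.0946) and without replicate 8 of the Sirpa-negative cells (0.0949). Maturation differences of -0.38 and -0.87 in Sirpa-positive and Sirpa-negative cells did not pass (adjusted p = 0.627 and 0.142).

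**Figure D3:**
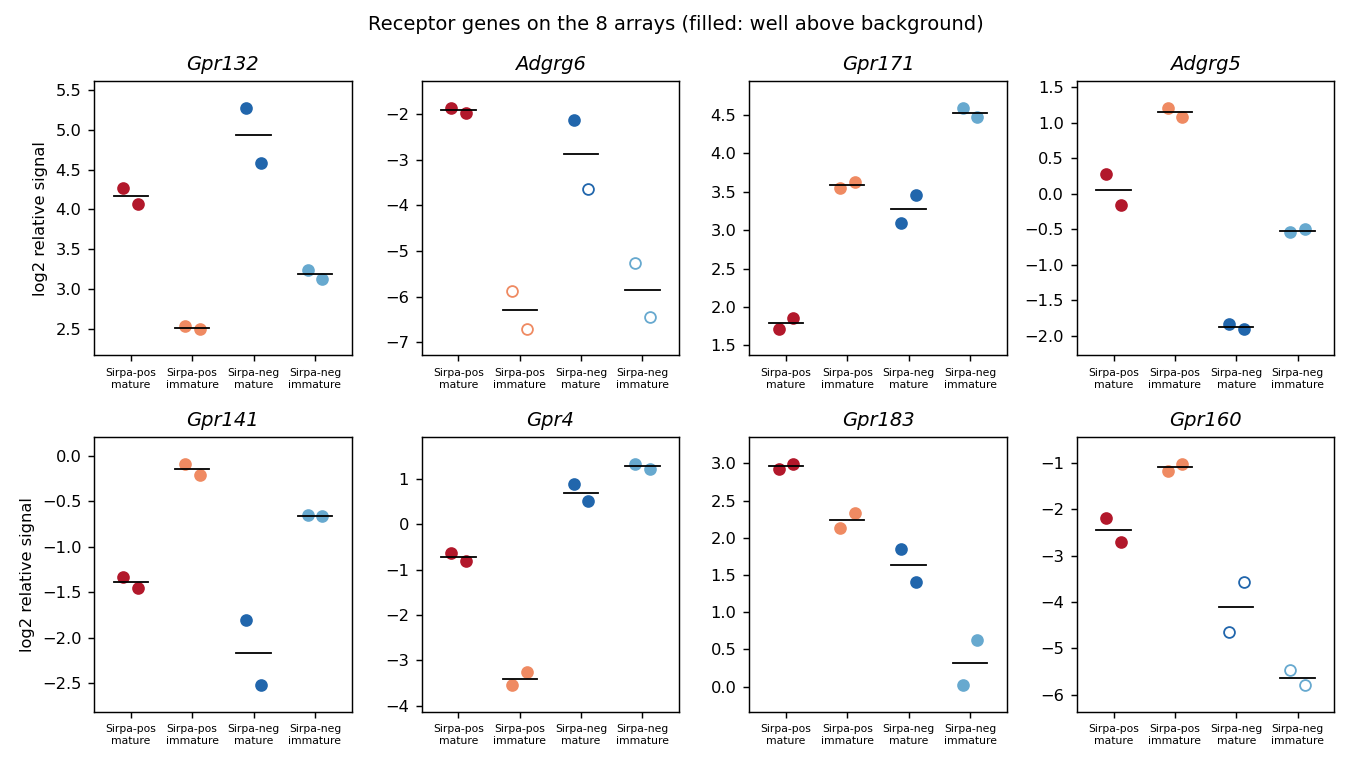
Relative signal on a log2 scale (processed intensity over the array's 75th percentile) of 8 receptor genes on each of the 8 arrays, by group. Filled points are well above background, open points are not, and lines are group means. Gpr132 is higher in both mature groups, Gpr171, Adgrg5 and Gpr141 are lower in them, and Gpr4 is lowest in the Sirpa-positive immature cells.

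The adhesion receptors that passed the test all belong to family G, and whether the families differ was not tested. The 25 genes comprise 8 of families A, B, D and V (5 tested), 2 of family E (2 tested), 4 latrophilins (1 tested) and 11 of families F and G (5 tested). The 4 genes that passed anywhere were Adgrg1, Adgrg3, Adgrg5 and Adgrg6, and the fifth tested gene of the F and G families, Adgrf4, did not pass. In the RefSeq annotation Adgrg1 lies next to both Adgrg3 and Adgrg5 on chromosome 8, and Adgrg6 lies on chromosome 10.

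Adgrg6, a receptor for matrix proteins that Schwann cells need to form myelin, was well above background on both Sirpa-positive mature arrays and on 1 of 2 Sirpa-negative mature arrays, and on 0 immature arrays. It had a relative signal of 0.276 and 0.256 in Sirpa-positive mature cells, against 0.0171 and 0.00958 in Sirpa-positive immature cells. In Sirpa-negative cells it was 0.228 and 0.0804 in the mature, against 0.0262 and 0.0114 in the immature state. With maturation Adgrg6 rose at least 5.60-fold in Sirpa-positive cells (limma log2 difference 4.37 ± 0.579, adjusted p = 0.00731) and at least 2.00-fold in Sirpa-negative cells (2.97 ± 0.579, adjusted p = 0.0150). Adgrg6 entered the test through the Sirpa-positive mature arrays alone, which favours a higher value there. Such a lower bound sets the brighter group against the higher of the gene's own signal and the dimmest signal that was well above background on each array. The Sirpa-positive call was lost without replicate 6 of the mature (adjusted p = 0.0561) or replicate 5 of the immature cells (0.0562). The Sirpa-negative call was lost without replicate 2 of the mature (0.0714) or replicate 7 of the immature cells (0.0651), and its value was 4.32 in row 1 and 1.62 in row 2 of the slide. That difference was 2.22 and 3.72 without replicates 2 and 8 of the mature, and 3.57 and 2.37 without replicates 4 and 7 of the immature cells.

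Adgrg5, an adhesion receptor found mainly on leukocytes, was 1 of 2 receptor genes that passed in all 4 comparisons. Relative signals were 1.21 and 0.897 in Sirpa-positive mature, against 2.31 and 2.11 in Sirpa-positive immature cells. In Sirpa-negative cells it was 0.279 and 0.268 in the mature, against 0.685 and 0.705 in the immature state. The groups did not overlap in any comparison: mature arrays were lower within each subset, and Sirpa-positive arrays were higher within each state. With maturation it fell by 1.09 on the log2 scale in Sirpa-positive cells (SE 0.214, limma, adjusted p = 0.0284) and by 1.35 in Sirpa-negative cells (SE 0.214, adjusted p = 0.00729). It was 3.18-fold higher in immature Sirpa-positive than in immature Sirpa-negative cells (adjusted p = 0.00265) and 3.80-fold higher in the mature cells (adjusted p = 0.00262). The Sirpa-positive maturation call was lost with slide row as a block (adjusted p = 0.0616; -0.81 in row 1 and -1.37 in row 2), and without replicate 6 of the mature (0.133) or replicates 3 or 5 of the immature cells (0.169 and 0.131).

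Adgrg1, also called GPR56 and known from cytotoxic lymphocytes in humans, was above background on both Sirpa-positive immature arrays, on 1 of 2 Sirpa-positive mature arrays and on 0 Sirpa-negative arrays. Its relative signal was 0.251 and 0.156 in Sirpa-positive immature cells, against 0.0211 and 0.0375 in Sirpa-negative immature cells. It was at least 2.92-fold higher in Sirpa-positive immature cells (limma log2 difference 2.82 ± 0.461, adjusted p = 0.00779), a call lost without replicate 3 of that group (0.0689). Adgrg1 entered the test through the Sirpa-positive immature arrays alone, a choice that favours a higher value there. Adgrg3, known from granulocytes, had relative signals of 0.479 and 0.372 in Sirpa-positive immature cells, against 0.164 and 0.086 in Sirpa-negative immature cells. It passed by a narrow margin with a log2 difference of 1.83 ± 0.470 (adjusted p = 0.0486); its values were not among those chosen by rank and are given because few adhesion receptors passed. Of 5 neutrophil markers 4 were on the array, and their summed relative signal was 0.120 to 0.208 in Sirpa-positive mature, 0.445 to 1.05 in Sirpa-positive immature, 0.301 to 0.326 in Sirpa-negative mature and 0.179 to 0.418 in Sirpa-negative immature cells. Among them S100a9 was above background on 6 of 8 arrays and at 0.275 and 0.713 in the Sirpa-positive immature cells, Mpo was above on 0 arrays, and none (0) of these markers passed in a comparison. Their part in the Adgrg3 values was not tested.

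Adgre5, whose best known partner is the complement regulator CD55, was above background on all 8 arrays. It had a relative signal of 4.62 and 3.94 in Sirpa-positive mature, 3.33 and 3.53 in Sirpa-positive immature, 3.81 and 2.66 in Sirpa-negative mature and 5.50 and 3.97 in Sirpa-negative immature cells. It passed in none of the comparisons (limma, adjusted p = 0.597 and 0.216 for maturation in Sirpa-positive and Sirpa-negative cells, 0.352 and 0.534 between subsets in immature and mature cells). The other family E member, Adgre4, known from mouse macrophages, was above background on 2 Sirpa-positive immature arrays and 1 Sirpa-positive mature array, and it did not pass. The latrophilin Adgrl1, which lies next to Adgre5 on chromosome 8, was above background on all 8 arrays and did not pass.

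The group of lipid and metabolite receptors and relatives of the P2Y receptors held 13 genes, of which 9 were tested. In Sirpa-positive maturation 3 of them fell and 0 rose. In Sirpa-negative maturation 2 rose and 2 fell. Among immature cells 2 were higher and 1 lower in Sirpa-positive cells, and among mature cells 3 were higher and 1 lower. Gpr183, Gpr84, Gpr31b, Gpr171, Gpr141 and Gpr82 account for these calls, and Gpr18, Gpr34 and Gpr35 passed in no comparison. Beside these counts, 4.35% of all genes rose and 2.53% fell in Sirpa-positive maturation, and 9.22% rose and 7.24% fell in Sirpa-negative maturation. Of all genes 7.23% were higher and 4.38% lower in Sirpa-positive immature cells, and 3.37% higher and 2.1% lower in Sirpa-positive mature cells.

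Gpr183, also called EBI2, binds an oxysterol that Cyp7b1 helps to make and Hsd3b7 degrades. Relative signals were 7.59 and 7.97 in Sirpa-positive mature, against 4.40 and 5.06 in Sirpa-positive immature cells. In Sirpa-negative cells it was 3.61 and 2.65 in the mature, against 1.01 and 1.54 in the immature state. The mature arrays lay above the immature ones in each subset, and the Sirpa-positive arrays above the Sirpa-negative ones in each state. With maturation Gpr183 rose 2.48-fold in Sirpa-negative cells (log2 difference 1.31 ± 0.271, limma, adjusted p = 0.0184), and the 0.72 ± 0.271 of Sirpa-positive cells did not pass (adjusted p = 0.188), although it passed with the authors' values (0.0455) and with normexp and quantile normalization (0.0258). It was 3.78-fold higher in immature Sirpa-positive than in immature Sirpa-negative cells (1.92 ± 0.271, adjusted p = 0.00405) and 2.51-fold higher in the mature cells (1.33 ± 0.271, adjusted p = 0.0346). The Sirpa-negative maturation call was lost without replicate 2 of the mature (0.0994) or replicate 4 of the immature cells (0.0920). The mature subset call was lost with any 1 of the 4 mature arrays left out (0.109, 0.152, 0.0595 and 0.158 without replicates 1, 6, 2 and 8), and without replicate 3 or 5 of the Sirpa-positive immature cells (0.0708 each).

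The ligand enzyme Cyp7b1 had relative signals of 0.200 and 0.217 in Sirpa-positive mature, 0.578 and 0.607 in Sirpa-positive immature, 0.0497 and 0.0366 in Sirpa-negative mature and 0.0550 and 0.0808 in Sirpa-negative immature cells. With maturation it fell by 1.51 on the log2 scale in Sirpa-positive cells (SE 0.260, limma, adjusted p = 0.0186), a call lost with any 1 Sirpa-positive array left out (0.0754, 0.0883, 0.104 and 0.116 without replicates 1, 6, 3 and 5). It was 8.89-fold higher in immature Sirpa-positive than in immature Sirpa-negative cells (limma, adjusted p = 0.00039). Of the 2 Sirpa-negative immature arrays 1 was above background. Among mature cells it was at least 4.15-fold higher in the Sirpa-positive subset (adjusted p = 0.00287). Cyp7b1 entered the test through Sirpa-positive arrays alone, which favours a higher value there. Hsd3b7 was above background on all 8 arrays, with relative signals of 1.16 and 0.945 in Sirpa-positive mature, 0.870 and 0.735 in Sirpa-positive immature, 2.33 and 1.35 in Sirpa-negative mature and 1.14 and 0.855 in Sirpa-negative immature cells, and it passed in no comparison.

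Gpr171, reported as a receptor for a neuropeptide and expressed by T cells, was the second gene that passed in all 4 comparisons. Its relative signal was 3.28 and 3.63 in Sirpa-positive mature, against 11.7 and 12.3 in Sirpa-positive immature cells. In Sirpa-negative cells it was 8.55 and 11 in the mature, against 24.1 and 22.1 in the immature state. Mature arrays were lower than immature arrays in each subset, and Sirpa-positive arrays lower than Sirpa-negative arrays in each state. With maturation it fell by 1.79 on the log2 scale in Sirpa-positive cells (SE 0.209, 3.46-fold, limma, adjusted p = 0.00503) and by 1.25 in Sirpa-negative cells (SE 0.209, 2.38-fold, adjusted p = 0.00876). It was lower in Sirpa-positive cells by 1.93-fold in the immature (adjusted p = 0.0278) and by 2.81-fold in the mature state (adjusted p = 0.00751). The Sirpa-negative maturation call was lost without replicate 4 of the immature cells (0.0509). The immature subset call was lost with slide row as a block (0.0538; -0.84 in row 1 and -1.05 in row 2) and without any 1 of the 4 immature arrays (0.181, 0.117, 0.133 and 0.0871 without replicates 3, 5, 4 and 7).

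Gpr141, an orphan of myeloid cells, had relative signals of 0.398 and 0.364 in Sirpa-positive mature, against 0.942 and 0.866 in Sirpa-positive immature cells. In Sirpa-negative cells it had 0.285 and 0.174 in the mature, against 0.636 and 0.632 in the immature state. The groups did not overlap in either subset. It fell by 1.25 on the log2 scale in Sirpa-positive cells (SE 0.263, limma, adjusted p = 0.0355) and by 1.51 in Sirpa-negative cells (SE 0.263, adjusted p = 0.0101). The Sirpa-positive call was lost with slide row as a block (0.0619; -1.12 in row 1 and -1.37 in row 2), with any 1 Sirpa-positive array left out (0.0973, 0.159, 0.186 and 0.154 without replicates 1, 6, 3 and 5), and without replicate 4 or 7 of the Sirpa-negative immature cells (0.0561 each). Gpr82, an orphan that lies next to Gpr34 on chromosome X, had 0.0554 and 0.105 in Sirpa-positive mature cells, where 1 of 2 arrays was above background, against 0.210 and 0.218 in Sirpa-positive immature cells. It fell by 1.49 on the log2 scale (SE 0.318, adjusted p = 0.0372). The Gpr82 call was lost with the authors' values (0.0636), with normexp and quantile normalization (0.0877), with slide row as a block (0.0696; -1.97 in row 1 and -1.0 in row 2) and without replicates 1, 3 or 5 of the Sirpa-positive cells (0.0967, 0.164 and 0.184), replicates 2 or 8 of the Sirpa-negative mature cells (0.0561 each) or replicates 4 or 7 of the Sirpa-negative immature cells (0.0518 each). Gpr34, a lysophosphatidylserine receptor, had maturation differences of -1.25 and -1.12 in Sirpa-positive and Sirpa-negative cells, which did not pass (adjusted p = 0.0715 and 0.0586).

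Gpr84, a receptor for medium-chain fatty acids, had relative signals of 0.471 and 0.405 in Sirpa-positive immature cells, against 0.0383 and 0.0456 in Sirpa-negative immature cells, where it was not well above background. In the mature state it had 0.433 and 0.356 in Sirpa-positive, against 0.0775 and 0.142 in Sirpa-negative cells. It was at least 6.42-fold higher in immature Sirpa-positive than in immature Sirpa-negative cells (log2 difference 3.38 ± 0.313, limma, adjusted p = 0.000601) and 3.74-fold higher in the mature cells (1.90 ± 0.313, adjusted p = 0.0147). With maturation it rose at least 1.54-fold in Sirpa-negative cells (adjusted p = 0.029; 0.77 in row 1 and 1.89 in row 2 on the log2 scale). That call was lost with the authors' values (0.483), with normexp and quantile normalization (0.497), without replicate 8 of the Sirpa-negative mature cells (0.0846), replicate 4 or 7 of the Sirpa-negative immature cells (0.127 and 0.0727) or replicate 3 or 5 of the Sirpa-positive immature cells (0.0539 each), and the mature subset call without replicate 1 (0.0783) or 6 (0.0615) of the Sirpa-positive cells. Gpr31b, tied in the mouse gut to lactate and pyruvate, had 1.01 and 0.841 in Sirpa-positive mature, against 0.230 and 0.336 in Sirpa-negative mature cells. It was 3.32-fold higher in Sirpa-positive mature cells (1.73 ± 0.271, adjusted p = 0.0120), a call lost without replicates 1 or 6 of the Sirpa-positive mature cells (0.0680 and 0.0518) and without replicate 2 of the Sirpa-negative mature cells (0.0584).

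Of the 4 receptors that signal through Gs without a known need for ligand, 3 were tested and Gpr6 passed. It had a relative signal of 0.731 and 0.853 in Sirpa-negative mature, against 0.275 and 0.291 in Sirpa-negative immature cells. In Sirpa-positive cells it was 0.695 and 0.477 in the mature, against 0.328 and 0.354 in the immature state. With maturation Gpr6 rose 2.79-fold in Sirpa-negative cells (log2 difference 1.48 ± 0.239, limma, adjusted p = 0.00755). Gpr3 and Gpr52 were above background on all 8 arrays and passed in no comparison.

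The group of Gpr names for proteins thought to act inside the cell held 9 genes, of which 7 were tested, and Gpr137b and its copy Gpr137b-ps passed. Gpr137b-ps carries the symbol of a pseudogene and a non-coding RefSeq transcript. It stands as a gene of its own in the counts given here. Gpr137b is a protein of the lysosome membrane. The copies are near-identical in sequence, so their probes may read both transcripts, and which of them changed is uncertain. Gpr137b had relative signals of 5.54 and 3.92 in Sirpa-negative mature, against 2.23 and 1.87 in Sirpa-negative immature cells, and 6.44 and 6.12 in Sirpa-positive mature, against 5.77 and 4.05 in Sirpa-positive immature cells. Gpr137b rose 2.28-fold with maturation in Sirpa-negative cells (limma, adjusted p = 0.0249) and Gpr137b-ps 2.20-fold (adjusted p = 0.00755). Gpr137b was also 2.37-fold higher in immature Sirpa-positive than in immature Sirpa-negative cells (adjusted p = 0.0254), and Gpr137b-ps differed there by 0.75 ± 0.183 on the log2 scale (adjusted p = 0.0406). The Gpr137b maturation call was lost without replicate 2 of the Sirpa-negative mature (0.126) or replicates 4 or 7 of the Sirpa-negative immature cells (0.0677 and 0.112). Its subset call was lost with slide row as a block (0.0513; 1.12 in row 1 and 1.37 in row 2) and without replicate 3 of the Sirpa-positive (0.188) or replicates 4 or 7 of the Sirpa-negative immature cells (0.0674 and 0.119).

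The remaining 36 Gpr genes, of which 15 were tested, passed mostly in the subset comparisons. In Sirpa-positive immature cells 5 of them were higher and 1 lower than in Sirpa-negative immature cells. In mature cells 2 were higher and 0 lower. Over all genes 7.23% were higher and 4.38% lower in the immature, and 3.37% higher and 2.1% lower in the mature comparison. Among those higher, Gpr160, Gpr85 and Gpr25 entered the test through Sirpa-positive arrays alone, which favours a higher value there. Gpr162, an orphan, had relative signals of 3.17 and 3.27 in Sirpa-positive mature, against 1.02 and 0.965 in Sirpa-negative mature cells. In the immature state it had 2.98 and 2.75 in Sirpa-positive, against 0.775 and 0.588 in Sirpa-negative cells. The subsets did not overlap in either state. Gpr162 was 4.24-fold higher in Sirpa-positive immature cells (log2 difference 2.08 ± 0.211, limma, adjusted p = 0.000903) and 3.24-fold higher in Sirpa-positive mature cells (1.70 ± 0.211, adjusted p = 0.00424).

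Gpr160, another orphan, was well above background on all 4 Sirpa-positive arrays and on 0 Sirpa-negative arrays. It thus entered the test through Sirpa-positive arrays alone, which favours a higher value there. Relative signals were 0.445 and 0.495 in Sirpa-positive immature cells, against 0.0225 and 0.0181 in Sirpa-negative immature cells. In the mature state it was 0.219 and 0.153 in Sirpa-positive, against 0.0402 and 0.0847 in Sirpa-negative cells. It was at least 6.92-fold higher in Sirpa-positive immature cells (log2 difference 4.54 ± 0.373, limma, adjusted p = 0.000378), and the mature difference narrowly missed the threshold (1.65 ± 0.373, adjusted p = 0.0505). The test also passed for maturation in Sirpa-negative cells (adjusted p = 0.032), where no array was well above background and no fold is given. It did not pass with the authors' values (0.308), with normexp and quantile normalization (0.464) or with quantile normalization alone (0.0934). That call was also lost with slide row as a block (0.0511; 1.15 in row 1 and 1.91 in row 2), without replicate 8 of the Sirpa-negative mature cells (0.0926), without replicates 4 or 7 of the Sirpa-negative immature cells (0.0823 and 0.129), and without replicates 3 or 5 of the Sirpa-positive immature cells (0.0592 each).

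Gpr85 and the brighter of the 2 kept Gpr25 probes were not well above background on any Sirpa-negative array, and the second Gpr25 probe was so on replicate 7 of the Sirpa-negative immature cells. Gpr25, an orphan, had relative signals of 0.0921 and 0.136 in Sirpa-positive immature cells, against 0.0261 and 0.0326 in Sirpa-negative immature cells, and 0.227 and 0.150 in Sirpa-positive mature cells, against 0.0639 and 0.0473 in Sirpa-negative mature cells. By the brighter probe Gpr25 was at least 1.65-fold higher in Sirpa-positive immature (limma, adjusted p = 0.00752) and 3.36-fold higher in Sirpa-positive mature cells (adjusted p = 0.0211). The mature value is the fitted fold and not a lower bound, and neither Sirpa-negative mature array was well above background. Both calls were lost with the authors' values (0.115 and 0.150) and with normexp and quantile normalization (0.215 and 0.186). A second Gpr25 probe gave log2 differences of 0.40 and 1.01 and passed in neither. The immature Gpr25 call was lost without replicate 5 of the Sirpa-positive cells (0.0545), and the mature call without replicate 1 of the Sirpa-positive (0.0963) or replicates 2 or 8 of the Sirpa-negative mature cells (0.0526 and 0.117). Gpr85, a receptor best known from brain, had 0.164 and 0.100 in Sirpa-positive immature cells, against 0.0226 and 0.0218 in Sirpa-negative immature cells. It was at least 1.89-fold higher in Sirpa-positive immature cells (adjusted p = 0.0236), a call lost with normexp and quantile normalization (0.106) and with any 1 immature array left out (0.164, 0.0583, 0.0864 and 0.0872 without replicates 3, 5, 4 and 7). Like Adgrg1, Gpr85 entered the test through the Sirpa-positive immature arrays alone. The brighter Gpr25 probe entered through the Sirpa-positive arrays of both states alone. Both choices favour a higher value in Sirpa-positive cells.

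Gpr146, known for a role in cholesterol levels set by the liver, had relative signals of 3.03 and 2.75 in Sirpa-positive immature cells, against 1.34 and 1.03 in Sirpa-negative immature cells. The difference was 2.46-fold (limma log2 difference 1.30 ± 0.304, adjusted p = 0.0342; 1.42 in row 1 and 1.18 in row 2), and was lost with slide row as a block (0.0565) and with any 1 immature array left out (0.198, 0.121, 0.0693 and 0.155 without replicates 3, 5, 4 and 7). Gpr161, which acts in the primary cilium against hedgehog signalling, was the gene among these that was lower in Sirpa-positive cells. It had 0.0448 and 0.0923 in Sirpa-positive immature cells, where 1 of 2 arrays was above background, against 0.233 and 0.148 in Sirpa-negative immature cells. Gpr161 entered the test through Sirpa-negative arrays alone, which favours a lower value in Sirpa-positive cells. Its log2 difference was -1.53 ± 0.392 (adjusted p = 0.0479; -0.68 in row 1 and -2.38 in row 2), and it was lost with the authors' values (0.0823), with slide row as a block (0.0797) and with any 1 of 7 arrays left out, the exception being replicate 5 of the Sirpa-positive immature cells (adjusted p between 0.0606 and 0.267).

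**Figure D4:**
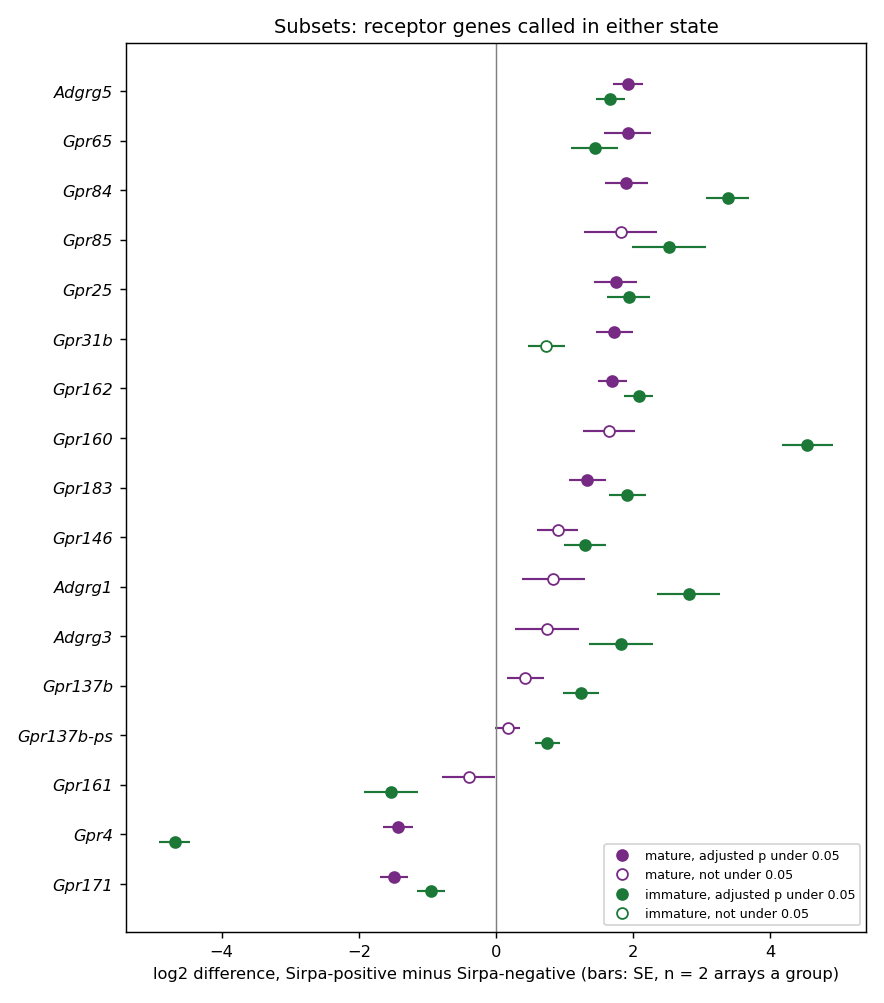
Log2 difference, Sirpa-positive minus Sirpa-negative, of the 17 receptor genes that passed in either subset comparison, with bars for the standard error. Purple points are mature and green points immature cells, and filled points passed the test (adjusted p under 0.05). Gpr4 lies lowest at -4.69 and Gpr160 highest at 4.54, both among immature cells.

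Of the 17 receptor genes that passed in either subset comparison, 8 passed in both with the same direction. Adgrg5, Gpr162, Gpr84, Gpr65, Gpr25 and Gpr183 were higher, and Gpr4 and Gpr171 lower, in Sirpa-positive cells. Markers of macrophages and monocytes moved with this comparison. All 9 were higher in immature Sirpa-positive than in immature Sirpa-negative cells and 8 of 9 in mature cells. Their summed relative signal was 380 to 418 in Sirpa-positive mature, 485 to 636 in Sirpa-positive immature, 15.7 to 18 in Sirpa-negative mature and 14.0 to 14.7 in Sirpa-negative immature cells, and each of the 9 was well above background on at least 1 array. Type 2 dendritic cells and macrophages share several of these genes, and their part in the receptor differences was not tested.

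Markers of thymocytes and T cells moved with maturation. In Sirpa-positive cells 5 of 12 rose and in Sirpa-negative cells 10 of 12, and 0 fell in either. Their summed relative signal was 54.6 to 59.0 in Sirpa-positive mature, against 40.8 to 46.9 in Sirpa-positive immature cells, and 48.9 to 55.0 in Sirpa-negative mature, against 14.6 to 15.4 in Sirpa-negative immature cells. Most of the Sirpa-positive immature sum was Cd4, at 33.6 and 26.5, which was lower in Sirpa-positive mature cells (17.9 and 18.6), against the direction of the sum. In Sirpa-negative cells Cd4 was 2.31 and 2.67 in the mature and 2.78 and 3.48 in the immature state. For the 5 B cell markers tested, the sum was 7.62 and 7.86 in Sirpa-positive mature, 4.90 and 4.74 in Sirpa-positive immature, 2.61 and 2.21 in Sirpa-negative mature and 1.85 and 1.16 in Sirpa-negative immature cells. Gpr171 and Gpr183 are also expressed by lymphocytes. Gpr183 had the same order of group means as the B cell sum. Gpr171 was lower in the groups with the higher T cell sums within each subset, and the part of lymphocyte RNA in the receptor values was not tested.

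The proteins that act behind and beside the receptors were described from lists of named genes. Over all genes, 4.35% rose and 2.53% fell in Sirpa-positive maturation and 9.22% rose and 7.24% fell in Sirpa-negative maturation. Between the subsets 7.23% were higher and 4.38% lower in Sirpa-positive immature cells, and 3.37% higher and 2.1% lower in Sirpa-positive mature cells. In these 4 comparisons the median log2 difference was 0.05, 0.06, -0.14 and 0.05 for the G protein subunits tested, 0.31, 0.66, 0.09 and -0.15 for RGS proteins, and 0.04, 0.39, 0.08 and -0.10 for receptor kinases, arrestins and Ramp proteins. It was 0.08, -0.06, -0.21 and -0.10 for cyclases and phosphodiesterases and 0.28, 0.08, 0.05 and 0.04 for ligands and ligand enzymes, beside 0.03, -0.01, -0.11 and -0.07 over all genes. Of 31 G protein subunit genes 25 were tested, and 2 rose and 2 fell with maturation in Sirpa-positive cells, 4 rose and 3 fell in Sirpa-negative cells. Gng4, a gamma subunit, had relative signals of 1.16 and 1.81 in Sirpa-positive mature, against 0.0604 and 0.0876 in Sirpa-positive immature cells. Sirpa-negative cells had 11 on both mature arrays, against 0.196 and 0.0271 in the immature state. In each subset 1 of 2 immature arrays was above background. Gng4 entered the test through the mature arrays alone, which favours a higher value there. Its log2 difference was 4.31 ± 0.801 in Sirpa-positive and 7.19 ± 0.801 in Sirpa-negative cells (limma, adjusted p = 0.0233 and 0.0019), and the second was 8.61 without replicate 4 and 5.76 without replicate 7 of the Sirpa-negative immature cells. Gna15, an alpha subunit of the Gq family found in blood cells, fell by 1.87 and 1.61 on the log2 scale in Sirpa-positive and Sirpa-negative cells (adjusted p = 0.0101 and 0.00892). The beta subunit Gnb4 was 6.21-fold higher in mature than in immature Sirpa-positive cells (adjusted p = 0.002). Between the subsets, 4 were higher and 2 lower in Sirpa-positive immature cells, and 2 higher and 3 lower in Sirpa-positive mature cells. Gna14, also of the Gq family, had relative signals of 1.79 and 2.43 in Sirpa-positive immature, against 0.0321 and 0.0569 in Sirpa-negative immature cells, where 1 of 2 Sirpa-negative arrays was above background (log2 difference 5.61 ± 0.314, adjusted p = 7.95e-05). It was 13.4-fold higher in Sirpa-positive mature cells (adjusted p = 0.000775). Gng12 was 4.17-fold and 3.70-fold lower in Sirpa-positive immature and mature cells (adjusted p = 0.00139 and 0.00389). The Sirpa-positive Gng4 call was lost with any 1 Sirpa-positive array left out (0.0696, 0.131, 0.134 and 0.103 without replicates 1, 6, 3 and 5). The Gna15 calls were lost without replicate 5 of the Sirpa-positive immature cells (0.0792) and without replicate 2 of the Sirpa-negative mature cells (0.0539).

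RGS proteins shorten G protein signals. Of 19 such genes 15 were tested, and with maturation 4 rose and 2 fell in Sirpa-positive and 4 rose and 3 fell in Sirpa-negative cells. Rgs18, of blood cells and platelets, had relative signals of 0.0955 and 0.186 in Sirpa-positive mature, against 1.05 and 1.11 in Sirpa-positive immature cells, and 0.198 and 0.206 in Sirpa-negative mature, against 0.889 and 1.04 in Sirpa-negative immature cells. It fell by 3.02 and 2.25 on the log2 scale (limma, adjusted p = 0.00337 and 0.00445). Rgs1, which dampens chemokine receptors in lymphocytes, had 13.9 and 14.2 in Sirpa-positive mature, against 3.99 and 1.84 in Sirpa-positive immature cells, and 23.1 and 13.5 in Sirpa-negative mature, against 1.76 and 1.13 in Sirpa-negative immature cells. It rose 12.5-fold in Sirpa-negative cells (adjusted p = 0.0024). Rgs16 rose 4.08-fold in Sirpa-positive cells (adjusted p = 0.0125). Between the subsets, Rgs4 was at least 1.89-fold higher in Sirpa-positive immature cells and 2.00-fold higher in Sirpa-positive mature cells (adjusted p = 0.000436 and 0.0289). The first Rgs4 call was lost with normexp and quantile normalization (0.115), and the second with the authors' values (0.103), with slide row as a block (0.0718) and with any 1 of the 8 arrays left out (0.052 to 0.121). Rgs16 was lost without replicate 6 of the Sirpa-positive mature cells (0.0574) and without replicates 3 or 5 of the Sirpa-positive immature cells (0.0925 and 0.0537).

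Of 15 receptor kinases, arrestins and Ramp proteins 14 were tested. Ramp3, which pairs with receptors of the calcitonin family, rose 2.85-fold in Sirpa-positive and 22.6-fold in Sirpa-negative cells with maturation (limma, adjusted p = 0.012 and 0.000332), and was 7.49-fold higher in immature Sirpa-positive than in immature Sirpa-negative cells (adjusted p = 0.000313). Arrb1, an arrestin, and the kinase Grk6 fell by 1.98 and 0.89 on the log2 scale in Sirpa-negative maturation (adjusted p = 0.0128 and 0.0238). No gene (0) of this list passed between the mature subsets. Of 19 adenylyl cyclases and cyclic AMP phosphodiesterases 16 were tested, and with maturation 2 rose and 2 fell in Sirpa-positive and 3 rose and 3 fell in Sirpa-negative cells. Adcy6 rose 12.5-fold and 19.2-fold in Sirpa-positive and Sirpa-negative cells (adjusted p = 0.00425 and 0.00113) and Pde4b 2.99-fold and 2.59-fold (adjusted p = 0.0108 and 0.00928). Adcy4 fell by 1.78 and 1.35 and Adcy7 by 1.28 and 1.29 on the log2 scale (adjusted p = 0.0284 and 0.0404 for Adcy4, 0.0447 and 0.0247 for Adcy7). Adcy4 was also lower in the Sirpa-positive than in the Sirpa-negative cells, by 4.06-fold in the immature and 5.48-fold in the mature state (adjusted p = 0.00988 and 0.00797). The Sirpa-negative Adcy6 difference was 4.92 without replicate 4 and 3.6 without replicate 7 of the immature cells on the log2 scale. The Sirpa-positive Ramp3, Adcy4 and Adcy7 maturation calls were each lost with any 1 of the 4 Sirpa-positive arrays left out (0.0526 to 0.0855 for Ramp3, 0.0804 to 0.173 for Adcy4 and 0.0975 to 0.218 for Adcy7), and Adcy7 also without replicate 2 or 8 of the Sirpa-negative mature cells (0.0531 each). For Sirpa-negative maturation, Arrb1 and Adcy7 were lost without replicate 2 (0.0619 and 0.128) or 7 (0.0609 and 0.116), Pde4b without replicate 4 (0.0525), Grk6 without any 1 of the Sirpa-negative arrays or of replicates 3 and 5 (0.0526 to 0.126), and Adcy4 without replicates 2, 8, 4, 3 or 5 (0.0559 to 0.183). With slide row as a block Adcy4 (0.0540 and 0.0670 in Sirpa-positive and Sirpa-negative maturation), Adcy7 in Sirpa-positive maturation (0.0835) and Grk6 (0.0533) were lost. Sirpa-positive Pde4b was lost without replicates 6, 3 or 5 (0.0666, 0.0600 and 0.0879), and the Adcy4 subset calls without replicates 3 or 4 in immature cells (0.0855 and 0.0516) and replicates 1 or 2 in mature cells (0.0512 and 0.0526).

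Of 25 genes for ligands and ligand-making enzymes 17 were tested. With maturation 2 rose and 2 fell in Sirpa-positive cells and 1 rose in Sirpa-negative cells. Flrt3, a surface protein that binds latrophilins, had relative signals of 1.67 and 2.03 in Sirpa-positive mature, against 0.158 and 0.149 in Sirpa-positive immature cells, and 1.93 and 1.68 in Sirpa-negative mature, against 0.0298 and 0.0283 in Sirpa-negative immature cells, where it was not above background. It rose 12-fold in Sirpa-positive and at least 26.6-fold in Sirpa-negative cells (limma, adjusted p = 0.000688 and 0.000139). Tenm4, a teneurin, a family that also binds latrophilins, fell by 1.89 on the log2 scale in Sirpa-positive cells (limma, adjusted p = 0.00636). Tenm4 entered the test through the Sirpa-positive immature arrays alone, which favours a higher value in those arrays. Between the subsets, 5 were higher and 1 lower in Sirpa-positive immature cells and 2 higher and 1 lower in Sirpa-positive mature cells. C1ql2, of the C1q-like family that binds Adgrb3, was 10.2-fold and 10.9-fold higher in Sirpa-positive immature and mature cells (adjusted p = 0.000253 and 0.000462), while Adgrb3 itself was above background on 0 arrays. Cyp27a1, a sterol hydroxylase, was 2.09-fold and 2.45-fold lower in Sirpa-positive immature and mature cells (adjusted p = 0.0307 and 0.0246). The Cyp27a1 calls were lost with slide row as a block (0.0598 and 0.0526), the immature one with any 1 immature array left out (0.0654 to 0.160), and the mature one without replicates 1, 6, 2, 3 or 5 (0.0587 to 0.130). Tenm4 was lost without replicate 6 or 3 of the Sirpa-positive cells (0.0516 and 0.0520). Over the 5 lists, 57 named differences passed, of which 25 passed under every alternative and 0 changed direction. In all 5 lists 0 genes passed the test of the difference between the maturation effects.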

How the data were processed

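Dendritic cells sorted from mouse thymus were measured on 8 arrays of 1 colour in 4 groups of 2, with groups taken from the sample titles. The deposited scanner files hold spot intensities after the scanner software's background subtraction and detrending, called processed signal, made with Feature Extraction 10.7.3.1 per the file headers. The submitters' processing notes name version 10.5, which was not resolved, and limma without a version. The authors' deposited table holds log2 values, a scale inferred from their range, with medians of 5.99 to 6.01 and sorted columns within 0.126 of each other. Its ranks follow the median pixel signal, no centring of genes was seen, and the sources used here give no settings for it. It served as an alternative.

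Spots with outlier flags (110 to 270 of 59305 per array) were dropped, and the spots of 1 probe were averaged. Each array's processed signal was divided by its 75th percentile before log2 was taken. Of 55681 probes, 33697 passed the background mark on 2 of 2 arrays in 1 or more groups and were kept, and the brightest kept probe stood for a gene, leaving 24152 genes or accessions, 13869 with a symbol. Names came from a RefSeq table (GRCm38.p6) for 26582 probes. The file headers name mm9 for the design, so coordinates are printed for RefSeq windows only. A limma fit (3.58.1, R 4.3.3) of 4 group means over all 8 arrays had 4 residual and 3.26 prior degrees of freedom, and its two-sided tests were adjusted over all genes by Benjamini-Hochberg with a threshold of 0.05. The fit was tested on simulated data. Called genes with the smallest p (up to 10 each way per comparison), Gpr183, Gpr132, Gpr65, Adgre5 and Adgrg5, and up to 2 each way per pathway list are named. The receptors, lists and alternatives were chosen with earlier results of these data known. The alternative with normexp correction (offset 50) used the median signal, since the files hold no mean signal. Some receptor and marker results are not reported here.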

Additional observations from a re-analysis of the deposited data

Results flagged for a closer look

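In 5 receptor genes both mature arrays lay on one side of both immature arrays in Sirpa-positive cells and on the other side in Sirpa-negative cells. The share of all genes with this pattern was not counted, so the 5 cannot be read as more than other genes show. The difference between the maturation effects, Sirpa-positive minus Sirpa-negative on the log2 scale, was tested in limma over all genes, and none of the 5 passed. For Gpr4 it was 3.26 ± 0.316 (SE, adjusted p = 0.0689), with higher values in mature Sirpa-positive cells and lower values in mature Sirpa-negative cells. For Gpr160 it was -2.89 ± 0.527 (adjusted p = 0.113), where the Sirpa-negative arrays were not well above background. For Gpr31b it was 0.99 ± 0.383 (adjusted p = 0.541), for Adgre5 0.87 ± 0.374 (adjusted p = 0.626) and for Gpr108, which lies in the Golgi membrane, -0.83 ± 0.296 (adjusted p = 0.503).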

How the results depend on the processing

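Of the 41 passing receptor differences that were named by rank, 16 passed under every one of 18 or 19 alternatives, and none (0) changed direction. Without a filter on dim probes 3, 6, 8 and 3 receptor genes passed for Sirpa-positive maturation, Sirpa-negative maturation, the immature and the mature subset comparison, against 7, 11, 16 and 9. With slide row as a block 4 passed for Sirpa-positive maturation and 9 for the immature subsets. With only the arrays compared in the fit 6 passed for Sirpa-negative maturation and 5 for the mature subsets. With normexp and quantile normalization 11 passed for Sirpa-positive maturation, and the split for Sirpa-negative maturation was 6 risen and 5 fallen, as with the authors' values, against 8 and 3. The causes were not tested. For the difference between the maturation effects, 1 receptor gene (Gpr4) passed with normexp and quantile normalization, with the authors' values, with genes above background on all 8 arrays and with trended and robust variances, against 0. Over all genes 180, 144, 101 and 186 passed there, against 0. Leaving out 1 array gave 2 to 7, 6 to 12, 7 to 14 and 5 to 9 calls in the 4 comparisons and 0 to 0 for the difference. Maturation of Gpr65 in Sirpa-positive cells, which did not pass, was 0.082 within slide row 1 and -0.38 over both rows. The titles gave no pairing, because their numbers run from 1 to 8 without repeats and the groups share none. Slide row, which holds 1 array of each group, served as the block instead. Signals near background bound the folds of Adgrg6, Adgrg1, Gpr160, Gpr84, Gpr85 and Gpr25.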
